A study of Mus musculus with 4 samples.

Results

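The chromatin around 3 genes for surface proteins of regulatory T (Treg) cells, Klrg1, Tigit and Cd80, is described here. Every ATAC-seq peak that overlapped the gene body or 50 kb on either side was taken, weak peaks included, whatever its value. These were 120 of the 504838 peaks in the 4 lists, 30 at Klrg1, 62 at Tigit and 28 at Cd80. Joined across libraries, they made 41 regions of 271730 on chromosomes 1 to 19 and X. The genes themselves were picked with results of these data already known. The study had shown these 3 as examples of genes with a peak unique to a genotype, so the shares below describe that choice and are no test of it.

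Cells were RFP+ Treg cells sorted from lymph nodes (LNs) of untreated female C57BL/6 mice aged 6 to 8 weeks, 50000 per library. All mice carried the Foxp3 Rfp/Rfp reporter, which marks cells by their Foxp3 expression. The WT group had an intact Il2ra gene, and the Il2ramut/mut group was homozygous for a point mutation in CD25, the α chain of the high-affinity IL-2 receptor, which lowers surface CD25 and is carried by every cell and not by Treg cells alone. Each genotype had 2 libraries, replicates 1 and 2. ATAC-seq marks open chromatin by where a transposase can insert adapters, and a peak in a list is a place where the reads passed the threshold of the authors' peak caller. Where a list has no peak, the signal stayed under that threshold, which does not make the chromatin closed.

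KLRG1 is an inhibitory lectin-like receptor of effector T cells and NK cells that binds cadherins, and on Treg cells it marks a terminally differentiated, activated state. TIGIT is an inhibitory receptor with an immunoglobulin domain that binds PVR (CD155) and nectins, for which it competes with the activating receptor CD226, and Treg cells express it widely. CD80 is a costimulatory ligand best known from antigen-presenting cells. It binds CD28, CTLA-4 and PD-L1, and activated T cells can carry it too.

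Library facts come before the values. The lists held 112569 and 126761 peaks in WT and 122776 and 142732 in Il2ramut/mut, and the weakest peak of a list had 5 or 6 reads at its summit. A percentile below is the rank of a peak by its −log10 p within its own list, with 100% the strongest peak. Because the lists differ in length, fold enrichment and reads are given as each library's own values and are not amounts to be compared between libraries. WT replicate 1 had the lowest percentile of the 4 libraries in 38.0% of all regions called in all 4, and Il2ramut/mut replicate 2 the highest in 41.4%. Promoter peaks of the 4 Treg genes checked (Foxp3, Ctla4, Ikzf2 and Il2ra) were called in all 4 libraries, the Foxp3 one at percentiles of 47.8 and 78.5 in WT and 72.6 and 79.7 in Il2ramut/mut. So were those of 3 of 4 CD4 T cell genes, Trac being the exception. Of the genes of other cells, 0 of 3 B cell, 0 of 4 myeloid and 0 of 2 NK cell genes had a promoter peak in any library. CD80 and KLRG1 are also proteins of some of these cells. Cd8b1 had one in all 4 libraries and Cd8a in none.

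Sequences are shown for the regions on which the comparison of genotypes turns: the nearest flanking region of Klrg1 with a peak only in Il2ramut/mut libraries, the Klrg1 upstream region with the highest-ranked peaks among those called in 3 libraries, the Tigit intron and the Cd80 promoter, both ranked higher in the mutant libraries, and the Tigit promoter, strong in every library. Regions are 300 bases of GRCm38 around the mean summit, on the plus strand. Promoters are the 250 bases before the start site in RefSeq's table for GRCm38.p6, which held 2 of the 3 genes, not Klrg1. Capitals mark words of transcription factor motifs, searched on both strands: STAT (TTCNNNGAA), forkhead (GTAAACA), AP-1 (TGANTCA), RUNX (TGTGGT) and TCF/LEF (ATCAAAG).
Klrg1 downstream, chr6:122270130-122270429, plus strand: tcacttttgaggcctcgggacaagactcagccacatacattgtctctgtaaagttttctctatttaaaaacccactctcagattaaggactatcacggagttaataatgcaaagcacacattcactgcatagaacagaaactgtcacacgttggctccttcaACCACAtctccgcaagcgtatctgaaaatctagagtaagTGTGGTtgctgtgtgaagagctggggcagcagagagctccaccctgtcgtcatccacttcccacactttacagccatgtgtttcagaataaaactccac
Klrg1 upstream, chr6:122293877-122294176, plus strand: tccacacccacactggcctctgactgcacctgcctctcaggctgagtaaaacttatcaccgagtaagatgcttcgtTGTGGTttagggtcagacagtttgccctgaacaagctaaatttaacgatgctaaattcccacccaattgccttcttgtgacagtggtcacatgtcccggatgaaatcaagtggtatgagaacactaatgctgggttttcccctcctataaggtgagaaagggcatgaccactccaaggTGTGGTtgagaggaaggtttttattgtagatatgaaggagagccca
Tigit intron 3, chr16:43655242-43655541, plus strand: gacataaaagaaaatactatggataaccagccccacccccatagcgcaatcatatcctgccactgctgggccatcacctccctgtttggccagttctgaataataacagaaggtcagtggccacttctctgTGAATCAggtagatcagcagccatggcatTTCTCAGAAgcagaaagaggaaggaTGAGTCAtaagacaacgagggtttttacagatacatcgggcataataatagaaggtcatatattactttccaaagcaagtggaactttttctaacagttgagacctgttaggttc
Tigit promoter, chr16:43664185-43664434, minus strand: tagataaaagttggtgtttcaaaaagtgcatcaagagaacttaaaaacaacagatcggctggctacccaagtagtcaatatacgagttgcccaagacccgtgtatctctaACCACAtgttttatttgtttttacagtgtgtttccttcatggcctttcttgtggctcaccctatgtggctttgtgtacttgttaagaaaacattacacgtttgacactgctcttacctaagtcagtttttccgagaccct
Cd80 promoter, chr16:38458683-38458932, plus strand: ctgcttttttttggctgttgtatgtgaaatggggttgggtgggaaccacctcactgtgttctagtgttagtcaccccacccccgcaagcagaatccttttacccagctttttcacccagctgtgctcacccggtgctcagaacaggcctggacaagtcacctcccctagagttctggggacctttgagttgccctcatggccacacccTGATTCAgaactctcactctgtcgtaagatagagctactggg

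The Klrg1 downstream region held the RUNX word once on each strand, and the upstream region held it at bases 77 and 255, both on the plus strand. The Tigit intron held the AP-1 word at bases 132 and 186 with the STAT word between them at base 161. The Tigit promoter had a RUNX word on its opposite strand, and the Cd80 promoter an AP-1 word 42 bases before the start site. Over the 31 regions of the 3 genes called in at least 2 libraries, the RUNX word was in 15 (48.4%, against 24.6% of the 104995 such regions of the genome). The AP-1 word was in 6 (19.4%, against 10.5%), STAT in 2 (6.45%, against 8.84%), TCF/LEF in 2 (6.45%, against 4.84%) and forkhead in 1 (3.23%, against 3.96%). RUNX was in 9 of the 13 regions called in 2 or 3 libraries (69.2%, against 24.3%), and AP-1 in 3 of them (23.1%, against 10.4%). Among the 18 called in all 4, RUNX was in 6 (33.3%, against 25.1%). Of the regions with peaks in both mutant and no WT library, the Klrg1 downstream region shown and that at Cd80 held the RUNX word. The other Klrg1 regions of this kind did not, and the region in Klrg1 intron 3 held none of the words searched. In promoters of the same 250 bases, RUNX stood in 14% of 32851, and AP-1 in 6.75%. These are matches of letters, not sites of binding.

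Klrg1 was the gene with the clearest difference in which peaks were called, and the nearest region with a peak of a WT library lay 8.67 kb from the gene. The gene lies on the minus strand at chr6:122270596-122282882, and its window held 10 regions. All 10 had a peak in both Il2ramut/mut libraries, and 5 of 10 had one in each WT library. The genome's shares for these counts were not computed, and the longest list was that of Il2ramut/mut replicate 2. In 4 of the 10 regions both mutant libraries and no WT library had a peak, where 9.2% of all regions called in at least 2 libraries showed this pattern. None showed the opposite pattern, which 6.98% of all such regions did. Windows with at least 4 regions of the mutant pattern were found at 419 of 21728 protein-coding genes (1.93%). The cut-off of 4 was the count of Klrg1 itself, a gene picked with its peaks known, so this share places the gene and tests nothing.

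No library had a peak at the Klrg1 start site. The only region in the gene body was in intron 3, with 15 reads at the summit in Il2ramut/mut replicate 1 and 11 in replicate 2, and no peak in WT. Its fold enrichment was 7.18 and 5.83, its −log10 p 12.4 and 8.81, and its percentile 80.6 and 76.5. These peaks thus stood above the middle of their lists and were not among the weakest called. Past the 3′ end of the gene, 0.107 kb away, a region had 13 and 10 reads in the mutant libraries (percentiles 76.4 and 71.4) and no peak in WT. A region 7.58 kb downstream had 13 and 8 reads (76.4 and 46.7), and one 6.58 kb upstream had 11 and 7 reads (66.2 and 25.3), again without a WT peak. The last of these was the weakest of the 4, with 7 reads in Il2ramut/mut replicate 2, whose list goes down to 5.

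A cluster of regions lay upstream of Klrg1, towards the pseudogene Gm6637. The strongest there was called in all 4 libraries, 8.67 kb from the gene, with 15 and 25 reads in WT and 24 and 24 in Il2ramut/mut. Its percentiles were 83.2 and 87.3 in WT and 87.8 and 90.1 in the mutant, so the groups did not overlap, but by a gap of only 0.548 percentage points. The next region out, 10.9 kb from the gene, is named after its values were seen. It had no peak in WT replicate 1, 8 reads in WT replicate 2 and 22 and 20 reads in the mutant libraries, that is, percentiles of 43.8 against 86.8 and 88.2. Another, 14.7 kb out, had 6 reads in WT replicate 1, none called in WT replicate 2, and 10 and 9 in the mutant.

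All 4 Klrg1 regions called in every library ranked higher in both mutant libraries than in both WT libraries, a pattern of 26.2% of all 38262 regions called in all 4. The widest difference in means was 37.6 percentage points, at a region 11.2 kb downstream, where the percentiles were 7.92 and 43.8 in WT and 55.5 and 71.4 in the mutant. There the WT libraries lay 35.9 points apart, about as far as the means of the genotypes, on summits of 6, 8, 10 and 10 reads. The region 21.4 kb upstream had percentiles of 47.8 and 71.3 in WT and 72.6 and 84.5 in the mutant. The highest-ranked region of the window was the promoter of M6pr, a neighbouring gene for a mannose 6-phosphate receptor, where all libraries stood between 99.94% and 99.97%, and the order of the genotypes rests on 0.013 points.

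**Figure D1:**
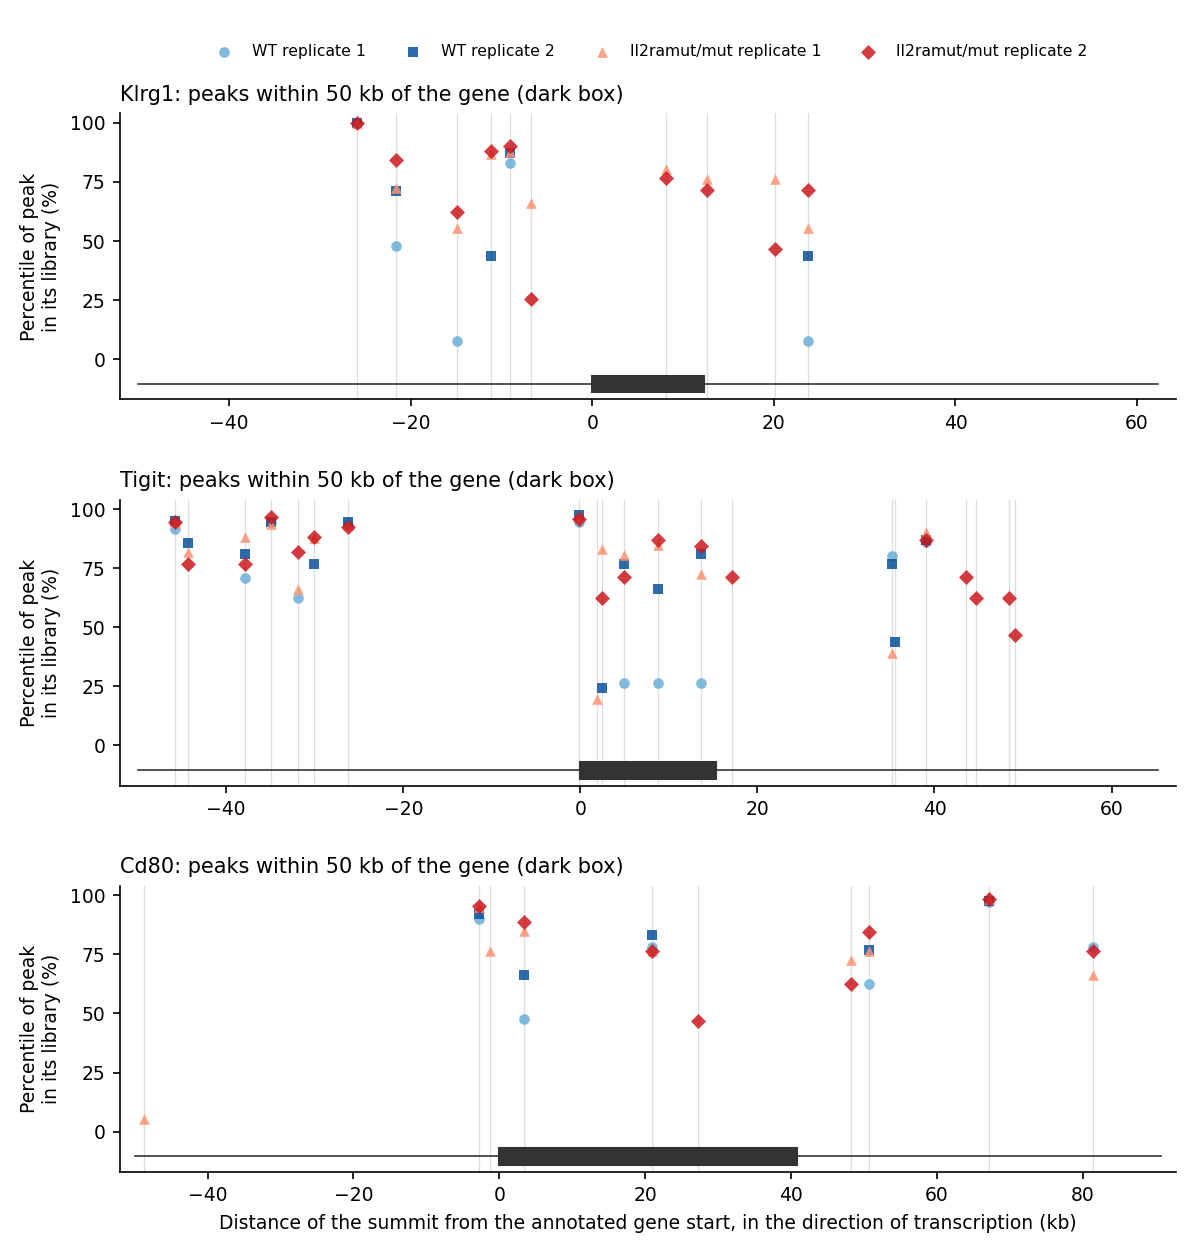
Percentile of each peak within its library (vertical axis, %) against the distance of the summit from the annotated gene start in the direction of transcription (horizontal axis, kb), for Klrg1, Tigit and Cd80, with a marker shape and colour per library. In the Klrg1 panel, all 10 regions carry both mutant libraries, the 4 regions without any WT marker lie in and around the gene, and no marker stands at the gene start.

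Tigit had a strong promoter in every library and no region confined to both libraries of a single genotype. Over the genome, 9.2% of regions called in at least 2 libraries were of both mutant and no WT libraries and 6.98% the reverse. With only 14 such regions at Tigit, the absence says little about the gene. The gene lies on the minus strand at chr16:43648867-43664146, and its window was the densest, with 21 regions, 6 of them in the gene. Of these 21, 9 were called in all 4 libraries, 5 in 3 libraries and 7 in a single library, 5 of the 7 in Il2ramut/mut replicate 2. Of the 14 called in at least 2 libraries, 9 were called in all 4, as were 36.4% of such regions in the genome.

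The promoter region of Tigit, chr16:43663886-43665277, had 40 and 90 reads at the summit in WT and 70 and 50 in Il2ramut/mut. Its fold enrichment was 20.8 and 46.0 in WT and 31.8 and 24.8 in the mutant, and its −log10 p was 50.4, 141, 96.1 and 65.4 in that order. By percentile it stood at 94.4 and 97.7 in WT and at 96.7 and 95.7 in the mutant. Both mutant values lay between the WT values, and the difference of means was 0.159 percentage points, against 3.27 between the WT libraries.

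Within the gene body the libraries did differ, and most of all WT replicate 1 from the rest. Intron 3 of Tigit held 3 regions called in all 4 libraries, each with 7 reads and a percentile of 26.6 in WT replicate 1. The middle of these, chr16:43655031-43655791, had 10 reads in WT replicate 2 and 19 and 18 in the mutant libraries. Its percentiles were 26.6 and 66.3 in WT and 84.8 and 87.01 in the mutant, without overlap. The mutant libraries lay 2.17 points apart there and the WT libraries 39.8 points apart, as far as the 39.5 points between the means. In the other intron 3 regions the genotypes overlapped, with 81.0 (WT replicate 2) against 72.6 and 84.5 in one and 76.7 against 80.6 and 71.4 in the other. A region over exon 2 and intron 2 had no peak in WT replicate 1, 7 reads in WT replicate 2 and 17 and 9 in the mutant. A weak peak over exon 2 and intron 1 was called in Il2ramut/mut replicate 1 alone, with a percentile of 19.8.

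The flanks of Tigit held strong regions that the genotypes shared. Upstream, near the pseudogene Gm49734 and the noncoding RNA gene Gm49735, the highest-ranked region lay 34.4 kb from the gene, with 41 and 54 reads in WT and 46 and 61 in the mutant and percentiles from 93.8 to 96.7, overlapping. A region 25.8 kb upstream was the only one of the window in which both WT libraries ranked above both mutant libraries, at 93.8 and 94.4 against 93.3 and 92.3, a difference of means of 1.24 points. Downstream, inside Zbtb20, a transcription factor gene, a region 23.5 kb from Tigit ranked higher in the mutant, at 90.1 and 87.01 against 86.0 and 86.8 in WT, with 0.219 points between the groups.

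Of the 5 Tigit regions called in 3 libraries, 3 lacked a peak in WT replicate 1, and the others lacked it in WT replicate 2 or Il2ramut/mut replicate 2. The region 29.8 kb upstream, named after its values were seen, had 24 and 20 reads in the mutant and 13 in WT replicate 2 but no peak in WT replicate 1. The region 19.8 kb downstream, also named afterwards, lacked it in a mutant library, with 13 and 13 reads in WT, 9 in Il2ramut/mut replicate 1 and no peak in Il2ramut/mut replicate 2. At 44.1 kb upstream the highest of the libraries was WT replicate 2, at a percentile of 85.7 against 81.9 and 76.5 in the mutant, with no peak in WT replicate 1.

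**Figure D2:**
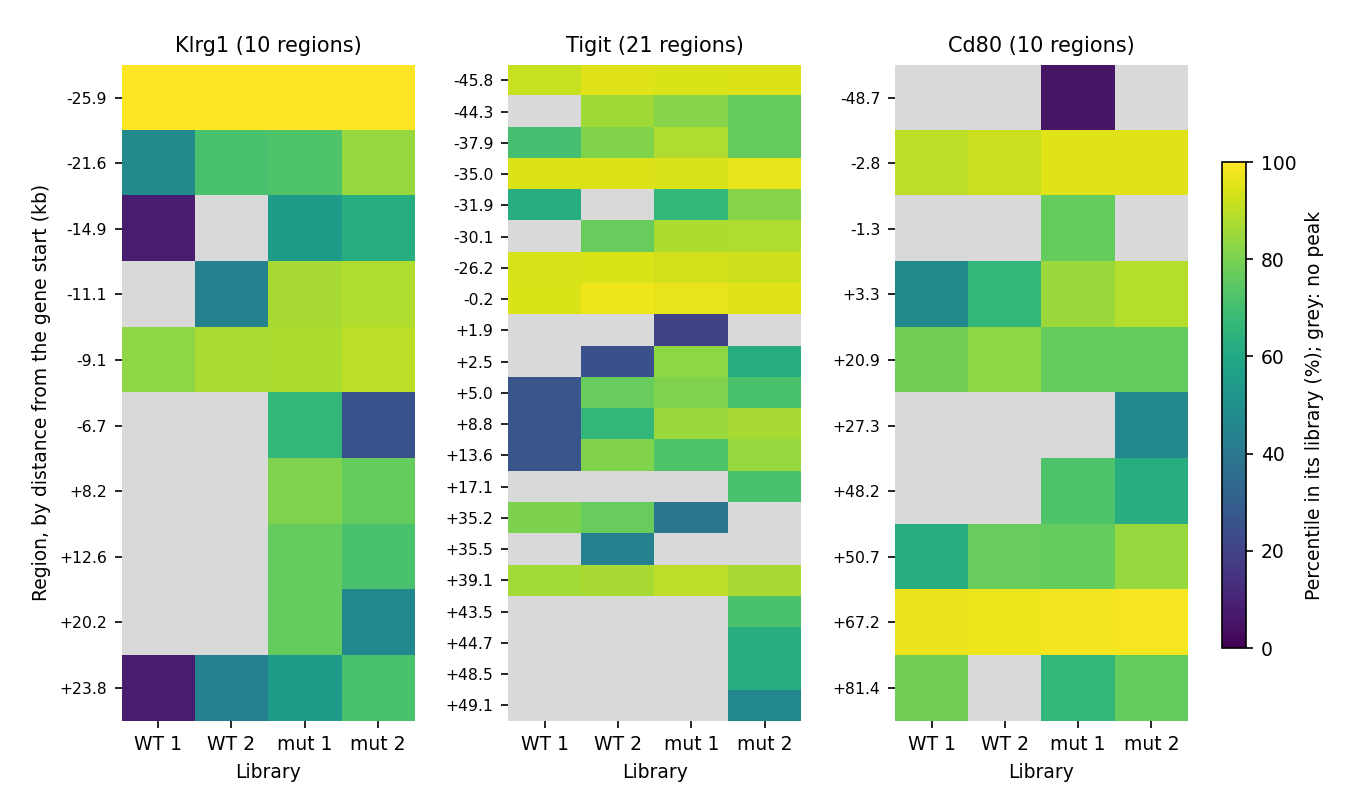
Percentile within its library (colour scale, %) of the peak in each of the 41 regions (rows, by distance of the summit from the gene start in kb) and each library (columns, WT replicates 1 and 2, then Il2ramut/mut replicates 1 and 2), grey where the list held no peak. Klrg1 shows 4 rows that are grey in both WT columns and coloured in both Il2ramut/mut columns, and Tigit shows no such row, while 5 Tigit rows are coloured in the last column alone.

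At Cd80 the promoter differed between the genotypes. The gene lies on the plus strand at chr16:38455561-38496335 and has 3 annotated start sites. Its window held 10 regions, 3 of them in the gene. Of the 7 called in at least 2 libraries, 5 were called in all 4, as were 36.4% of such regions in the genome. The region at the start of transcript Cd80-201, chr16:38458674-38459085, had 8 and 10 reads at the summit in WT and 19 and 21 in Il2ramut/mut. Its fold enrichment was 4.56 and 5.56 in WT and 8.97 and 10.7 in the mutant, and its −log10 p was 6.04 and 8.09 against 17.1 and 20.95. The percentiles were 47.8 and 66.3 in WT and 84.8 and 88.8 in the mutant. The groups did not overlap, with 18.5 points between them, and the difference of means, 29.8 points, was wider than the 18.6 points between the WT libraries and the 3.93 between the mutant libraries. Of the 9 regions at the 3 genes that ranked higher in both mutant libraries, 5 had a difference of means wider than the spread within either genotype. At the Cd80 promoter it was wider by 11.2 points. The others were the region 11.2 kb downstream of Klrg1 (1.62) and the promoters of the neighbouring genes M6pr (0.004), Adprh (2.20) and Timmdc1 (0.801). The share of the genome's regions with this pattern was not computed.

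Further into Cd80 the order turned. A region in intron 3 of transcript Cd80-202, chr16:38476296-38477085, had 12 and 18 reads in WT and 13 and 11 in the mutant, with percentiles of 78.2 and 83.0 against 76.4 and 76.5. Both WT values were above both mutant values, by 1.71 points, although the WT libraries lay 4.72 points apart. A peak in intron 5 was called in Il2ramut/mut replicate 2 alone, with a percentile of 46.7. The start site of Cd80-202 had no region on it, and the nearest was a peak of Il2ramut/mut replicate 1 alone, 13 reads high, 1.2 kb before it.

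In the flanks of Cd80, a region 7.19 kb downstream was called in both mutant libraries, with 12 and 9 reads and percentiles of 72.6 and 62.3, and in no WT library. The promoter shared by Adprh, a hydrolase of ADP-ribosylated arginine, and the antisense RNA D930030I03Rik lay 2.19 kb from Cd80. It had percentiles of 90.0 and 92.04 in WT and 95.1 and 95.4 in the mutant, on summits of 25, 40, 54 and 48 reads. The Timmdc1 promoter, for a mitochondrial assembly factor, was the highest-ranked region of the window, at 97.2 and 97.4 in WT and 98.3 and 98.6 in the mutant. Its summits had 61 and 86 reads in WT and 97 and 95 in the mutant. At both neighbouring promoters the genotypes did not overlap either. Near the top of the scale percentiles leave little room to differ, so the size of these differences, 4.21 and 1.09 points, cannot be set against that at the Cd80 promoter.

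**Figure D3:**
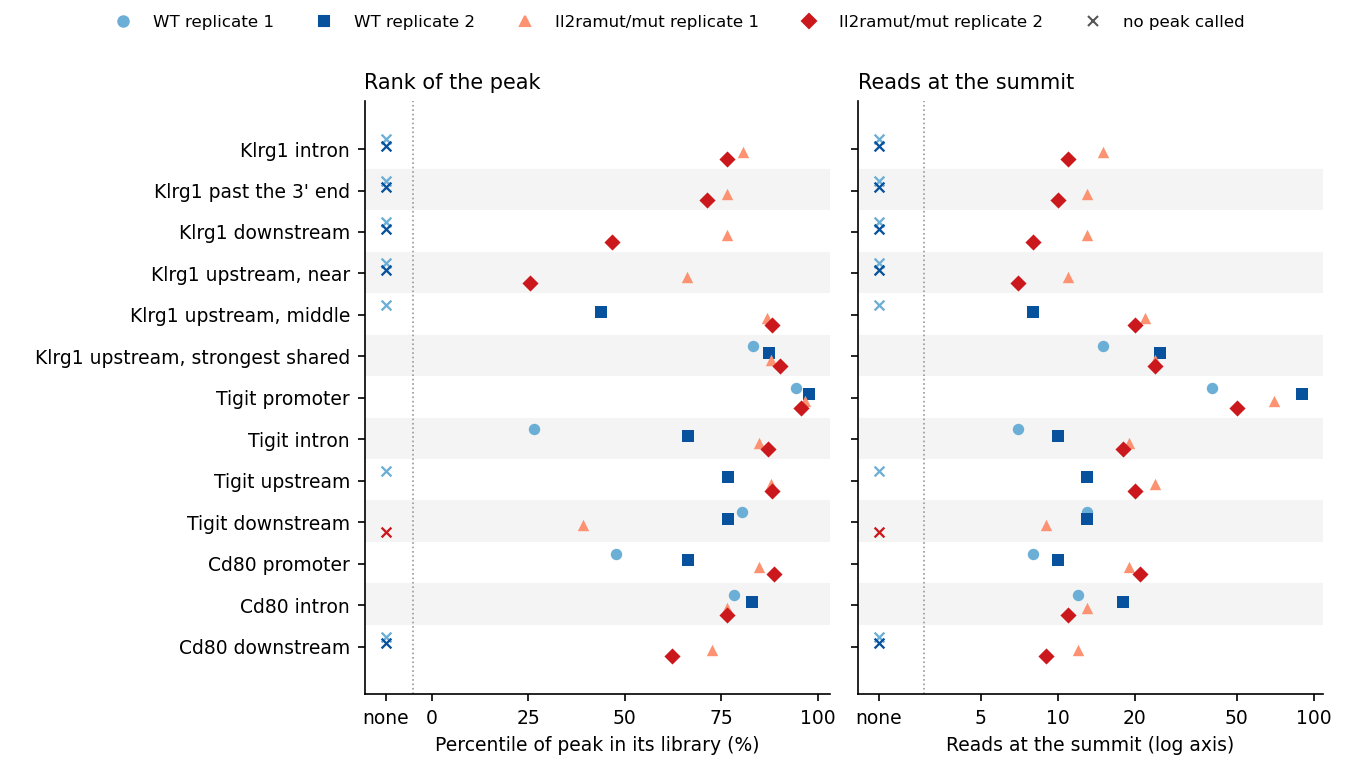
Percentile of the peak in its library (left, %) and reads at its summit (right, log axis) for 13 of the regions described, with a marker per library and a cross in the column marked none where no peak was called. At the Klrg1 intron only the mutant libraries have values (11 and 15 reads), the Tigit promoter has all 4 libraries between 94.4% and 97.7%, and the Cd80 promoter has WT at 8 and 10 reads and the mutant at 19 and 21.

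Over the 3 genes together, 5 of 31 regions called in at least 2 libraries (16.1%, against 9.2% of the genome) had peaks in both mutant and no WT library, and none had the opposite pattern. Klrg1 supplied 4 of these 5. Of the 18 regions called in all 4 libraries, 9 ranked higher in both mutant libraries (50%, against 26.2%) and 2 in both WT libraries (11.1%, against 12.6%). The median difference of means over the 18 was 3.98 percentage points, towards the mutant, against 0.639 over all 38262 regions, whose 5th to 95th percentile ran from -21.02 to 25.6. It was 11.4 points at Klrg1, 2.20 at Tigit and 4.21 at Cd80.

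These shares were also computed with stricter lists, with lists of equal length and without WT replicate 1. With only peaks of a −log10 q of at least 3, 8 of 14 regions ranked higher in both mutant libraries (57.1%), but so did 44.1% of the genome's, and 6 of 30 (20%, against 10.7%) were of both mutant and no WT libraries. With equal numbers of peaks from every library, the higher-in-mutant and higher-in-WT shares were 19.9% and 20.3% over the genome, and they were again 9 and 2 of 18 regions at the 3 genes, while the regions of both mutant and no WT libraries numbered 4 of 30 (13.3%, against 7.59%). WT replicate 1 was the lowest library in 15 of the 18 regions (83.3%, against 38.0% of the genome). Without it, 12 of 22 regions ranked higher in both mutant libraries than in WT replicate 2 (54.5%, against 36.4%) and 5 of 22 lower than in it (22.7%, against 29.8%). All 5 Klrg1 regions called in the remaining libraries were among the 12, with 4 of the Tigit and 3 of the Cd80 regions, and 4 of the 5 lower ones were at Tigit. Without WT replicate 1 the difference of means went from 37.6 to 19.6 points at the region 11.2 kb downstream of Klrg1, from 18.99 to 7.22 points at that 21.4 kb upstream, from 39.5 to 19.6 points in the middle of Tigit intron 3 and from 29.8 to 20.5 points at the Cd80 promoter. All of these were taken from the regions where both WT libraries ranked below both mutant libraries, so that order is no further support. In the outer regions of Tigit intron 3, where the genotypes overlapped, the difference went from 24.7 to -2.53 points and from 24.4 to -0.712 points. The part of library quality in these differences was not tested.

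The ligands and partner receptors of the 3 proteins were 13 genes, whose windows of the same kind held 611 regions. Of the 313 called in at least 2 libraries, 23 (7.35%, against 9.2% of the genome) were of both mutant and no WT libraries and 17 (5.43%, against 6.98%) the reverse. Cdh4, for a cadherin, alone held 398 of the 611 regions and 21 of the 23. Without it, 2 of 141 regions (1.42%) were of the mutant pattern and 8 (5.67%) of the WT pattern. Of the 112 regions called in all 4 libraries, 20 ranked higher in both mutant libraries (17.9%, against 26.2%) and 21 in both WT libraries (18.8%, against 12.6%). Whether these shares differ from those at Klrg1, Tigit and Cd80 was not tested.

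Among the TIGIT genes, 3 of 33 regions ranked higher in the mutant (9.09%, against 26.2% of the genome) and 11 in WT (33.3%, against 12.6%). They are its ligands Pvr, Nectin2 and Nectin3 and the receptors Cd226, Cd96 and Pvrig. The promoter of Cd226, which competes with TIGIT, had percentiles of 75.3 and 87.3 in WT and 83.0 and 86.3 in the mutant, and that of Cd96, another receptor for PVR, 87.4 and 92.4 against 91.8 and 88.8, both overlapping. Among the CD80 genes, 11 of 50 regions ranked higher in the mutant (22%, against 26.2%) and 6 in WT (12%, against 12.6%), while 1 of 75 regions (1.33%, against 9.2%) was of both mutant and no WT libraries and 6 (8%, against 6.98%) the reverse. Cd86, for the related ligand CD86, had 12 regions called in all 4 libraries, with 5 ranked higher in the mutant and 0 higher in WT. Of its 16 regions called in at least 2 libraries, 0 were of mutant libraries alone and 2 of WT libraries alone. Cd28, for the activating receptor of CD80 and CD86, had 0 and 4 of 10 by rank and 0 and 4 of 17 by presence. At Ctla4, for their inhibitory receptor, the counts were 5 and 2 of 19 by rank and 1 and 0 of 28 by presence. At Cd274, for PD-L1, they were 1 and 0 of 9 by rank and 0 and 0 of 14 by presence. These counts per gene are small, and differences between genes were not tested. The 3 cadherin genes had 6 regions ranked higher in the mutant and 4 in WT of 29 (20.7% and 13.8%, against 26.2% and 12.6%). The promoter of Cdh1, for E-cadherin, stood between 80.3% and 81.8% in all 4 libraries.

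**Figure D4:**
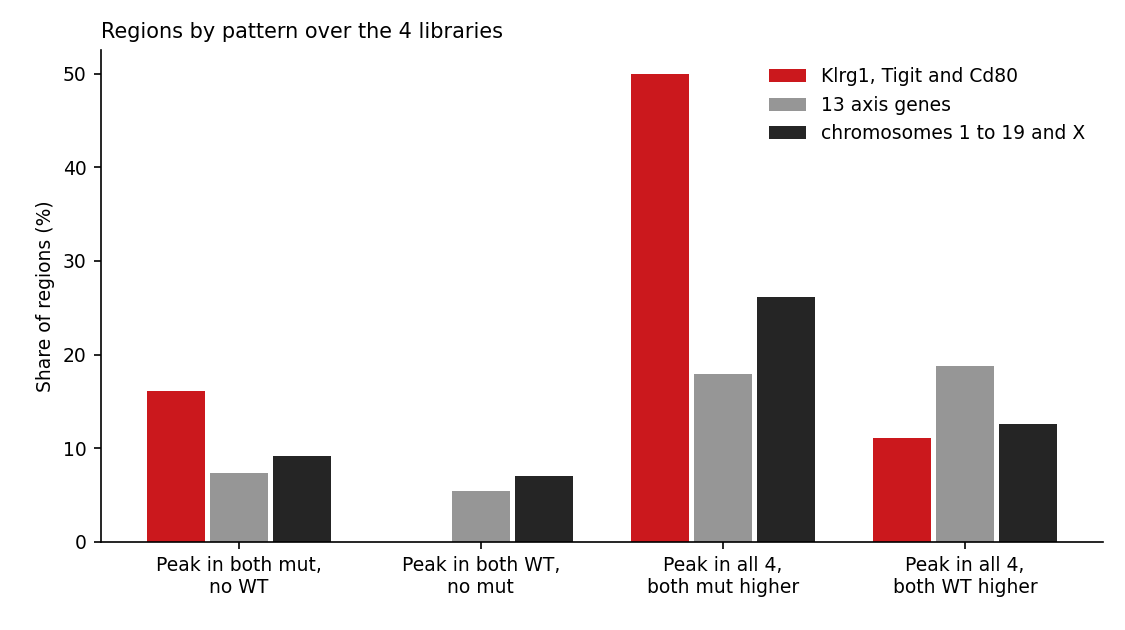
Share of regions (vertical axis, %) with each pattern over the 4 libraries, for the windows of Klrg1, Tigit and Cd80, the 13 ligand and receptor genes and chromosomes 1 to 19 and X; the left pair of patterns is out of regions called in at least 2 libraries, the right pair out of regions called in all 4. The bar of the 3 genes is the highest for both mutant patterns, at 16.1% and 50%, against 9.2% and 26.2% over the genome.

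The protein-coding genes most like each member were looked up by the highest percentile in the gene body and 2 kb upstream, in each of 4 libraries, over 21727 other genes and by Euclidean distance in percentage points. For Klrg1, with no peak in WT and 80.6 and 76.5 in the mutant, they were Adamts8 and Repin1, both at a distance of 1.74, and Lpar3 at 4.22. For Tigit they were Tsc22d3 (0.497), H3f3a (0.66) and Gtf3c6 (0.683). For Cd80, whose highest peaks were at the intron in WT and at the promoter in the mutant, they were Kcmf1 (1.38), Polr2c (1.83) and Ntpcr (2.21).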

How the data were processed

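ATAC-seq libraries of LN Treg cells were used, 2 from WT and 2 from Il2ramut/mut mice. The submitters' processing notes name Trim Galore (0.3.7), BWA (0.7.13), SAMtools (0.1.19), Picard (1.92), MACS2 (2.1.0) and mm10. The authors discarded duplicates and mitochondrial reads and ran the peak caller library by library. The deposited lists give, per peak, the fold enrichment at its summit over background as a linear ratio, −log10 p and −log10 q. The fold enrichment is (reads + 1) divided by (background + 1), from which whole reads at the summit were recovered for every peak (largest distance to a whole number 0.00017 reads). The background recovered in the same way was 0.974 and 0.979 reads in WT and 1.23 and 1.06 in Il2ramut/mut, higher in both mutant lists. Read totals are not given, so the depth itself is unknown, and the part of background or depth in the peaks called was not tested.

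Peaks overlapping by at least 1 bp were joined into regions, and a library's value was its highest peak there. Percentiles are mean ranks of −log10 p within a list. Genes, exons and start sites came from GENCODE vM21 (GRCm38, the build of mm10). No test was made, because 2 libraries against 2 cannot give a two-sided exact permutation p below 0.333. The study's methods call the libraries of a genotype biological replicates, and the labels do not say whether each came from its own mouse. Backgrounds cover chromosomes 1 to 19 and X. Python (3.11.15), numpy (2.4.6), pandas (2.3.3) and matplotlib (3.10.9) were used, and the steps passed 12 of 12 checks on simulated data. The members, the gene lists and the rule for the regions named were chosen with earlier results of these data known. That rule takes regions at a start site or in a gene body, flanking regions of a single genotype, the 3 flanking regions with the largest gap in each direction between genotypes that do not overlap, and the highest-ranked flanking region. The sequence of 1 region is not reported here.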

Additional observations from a re-analysis of the deposited data

How the results depend on the processing

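No paired analysis was possible because the counts and percentile differences come from no test, so that no fit could take the replicate number as a block. Of 126 values of the 18 counts under the alternatives, 105 were within 1.5 times the count reported. Klrg1 counts and joining by at least 50% of the shorter peak gave none of the other 21. With only peaks of a −log10 q of at least 3, Tigit had 1 region of both mutant and no WT libraries, 1 ranked higher in the mutant and 0 higher in WT, and Cd80 had 0 higher in WT. With equal numbers of peaks per library, Tigit had 1 ranked higher in the mutant. Leaving out each library in turn gave ranges at Tigit of 1 to 5 regions of mutant libraries alone (0 with all libraries), 0 to 1 of WT libraries alone, 4 to 8 ranked higher in the mutant (8 without WT replicate 2, when WT replicate 1 alone stands for WT) and 1 to 4 higher in WT, and at Cd80 of 1 to 3 of mutant libraries alone and 1 to 2 higher in WT. The alternative's own construction bears on these, since a genotype then has 1 library. The difference of means of the 18 regions kept its sign in 14 of 18 without WT replicate 1 (the others, all at Tigit, were the promoter, the outer intron 3 regions and the region 44.8 kb upstream), and in 18 of 18 without WT replicate 2. At a −log10 q of at least 3 it moved in 9 of 14, among them the Cd80 promoter, from 29.8 to 51.0 points. A move was a change of at least the standard deviation of the replicates, in the genotype whose replicates lay further apart. Ranking by fold enrichment orders the peaks as −log10 p does and could change nothing. Read totals are unknown, and the background was higher in both mutant lists than in both WT lists. The 5 regions of a single genotype rest on 7 to 15 reads at the summit.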
